A study of Saccharomyces cerevisiae with 9 samples.

Results

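Transcript levels were compared between the D126 and D12 strains of the yeast Saccharomyces cerevisiae, on 6 of the 9 arrays of the study. The arrays were chosen by their titles, 3 for each strain, and the comparison covered 5449 S. cerevisiae genes, each read from a probe set that names 1 gene. D126 carries genes for a D12-desaturase and a D6-desaturase, both from the fungus Mucor rouxii, D12 expresses the D12-desaturase alone, and the 3 arrays of the reference strain REF are given beside them. The 3 strains shared their growth condition, a glucose-limited chemostat at a dilution rate of 0.1 per h that was sampled after steady state had lasted 5 or more residence times. The comparison asks how the transcriptome of the strain with both desaturases differs from that of the strain with the D12-desaturase alone. Any other difference in how these strains were built would be part of it. Neither the labels nor the design text used here names the parent strain, its mating type, the plasmids, the promoters or the selectable markers. The transcripts of the introduced desaturases were not analysed here, so the labels of the strains could not be checked against them. Nothing in the labels says that replicates came from separate cultures, so every p-value rests on the spread among these 9 arrays, and that spread may be technical.

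Fatty acid desaturases insert double bonds into acyl chains. Yeast has a single fatty acid desaturase of its own, Ole1, which makes monounsaturated acids and draws electrons from cytochrome b5. A D12-desaturase adds a further double bond to oleic acid, giving linoleic acid, and a D6-desaturase carries on to gamma-linolenic acid, so that D126 cells are built to hold acids with more double bonds than D12 cells. In yeast, the transcripts of OLE1, of the sterol pathway and of the anaerobic mannoproteins are known to follow membrane fatty acids, sterols or oxygen.

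Values are the deposited log2 expression levels, on which a difference of 1 is a 2-fold change. A level belongs to its own probe set, so levels are compared between strains and never between genes. Along the leading principal component of the 6 arrays, which held 61.3% of their variance, D126 lay at 8.04, 5.32 and 6.35 and D12 at -4.04, -6.73 and -8.94. The strains were thus separated on it. The next component, with 21.3%, set D12 replicate 3 at 6.96 apart from D12 replicates 1 and 2 at -4.51 and -4.10. Gene by gene, the SD of the difference between arrays was 0.062 to 0.121 within D126, 0.110 to 0.170 within D12 and 0.152 to 0.239 between the strains. D12 replicate 3 was in the 2 widest pairs within D12.

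Of the 5449 genes, 1200 (22.0%) differed between D126 and D12 at an adjusted p under 0.05 in a linear model fitted with limma to all 9 arrays, with p-values adjusted over all genes by the Benjamini-Hochberg method. Of these, 399 genes (7.32%) were higher and 801 (14.7%) were lower in D126. The 3 values of one strain lay entirely above those of the other for 2095 genes (38.4%), and 10 called genes had overlapping values. Most changes were small. The median size among called genes was 0.23, the smallest was 0.09, and 3 genes rose and 9 fell by at least 2-fold. At a change of 1.5-fold the counts were 17 and 64. Without adjustment, 1959 genes had a p under 0.05.

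The excess of lower calls depends on the scaling of the arrays. Among the called genes, 33.2% were higher in D126 with the deposited values, 48.5% after quantile normalization over the S. cerevisiae genes (593 higher and 630 lower) and 43.3% with each array centred on its median (536 higher and 703 lower). The median difference over all genes was -0.018 with the deposited values and 0.009 after quantile normalization. Lower calls were also spread unevenly over level. With genes split by level into 4 equal parts, 1363 of them in the dimmest, 67 of the dimmest part were called higher and 233 lower with a median difference of -0.06, and in the brightest part 128 were called higher and 204 lower with a median of 0.01. Without D12 replicate 3 the calls numbered 442 higher and 680 lower, and without D126 replicate 3 they numbered 208 higher and 475 lower. Higher calls were also fewer without D12 replicate 2 (223), D126 replicate 1 (259) or D126 replicate 2 (262). The plot of differences against level shows the few large changes lying well outside the main body of genes.

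**Figure D1:**
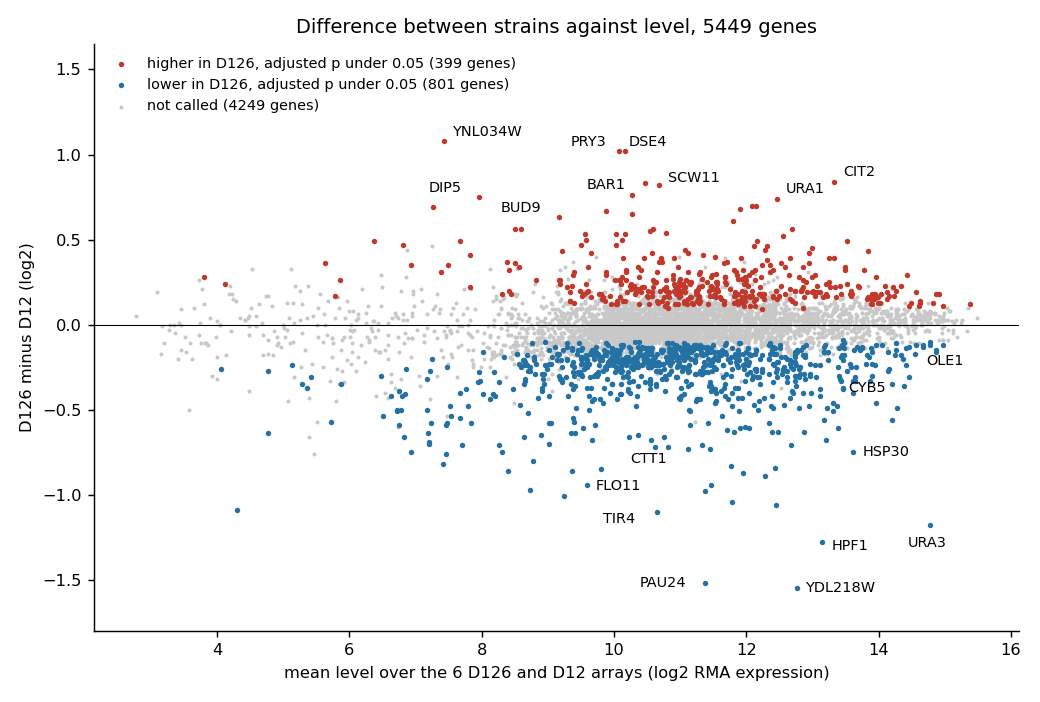
Each point is 1 of 5449 genes, with its mean level over the 6 D126 and D12 arrays on the horizontal axis (log2) and D126 minus D12 on the vertical axis (log2). Red points were called higher in D126 (399), blue points lower (801) and grey points were not called. YDL218W, PAU24 and HPF1 lie lowest and YNL034W, PRY3 and DSE4 highest.

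The URA3 transcript, for orotidine phosphate decarboxylase of uracil synthesis, had the smallest p of the genes named here. It read 14.17, 14.22 and 14.17 in D126, against 15.37, 15.36 and 15.36 in D12. REF read 15.32, 15.30 and 15.34, and the 3 D126 arrays lay below all 6 others. The difference between D126 and D12 was -1.18 (SE 0.03, adjusted p = 9.06e-08). Values of URA3 in D12 lie near the upper end of the deposited scale, at 15.51, where differences may be compressed, which was not tested. URA3 is also a common selectable marker, and whether it marks a plasmid here cannot be told from the labels.

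Other genes of pyrimidine synthesis went both ways. URA1, the dihydroorotate dehydrogenase that acts earlier in the same pathway, read 12.79, 12.88 and 12.82 in D126, against 12.17, 12.11 and 11.99 in D12, a difference of 0.74 (SE 0.06, adjusted p = 0.000142). The URA1 values of the strains did not overlap. Of 15 measured genes of pyrimidine synthesis and salvage, 3 rose, a share above the 7.32% of all genes. On the same list 2 fell, URA3 among them, a share just under the 14.7% of all genes. URA2, the enzyme complex at the head of the pathway, rose by 0.22 and URA8, a CTP synthase, by 0.16. URA10, a minor orotate phosphoribosyltransferase, fell by 0.25, and its major counterpart URA5 differed by -0.02 (adjusted p = 0.781). Among other common marker genes, LEU2 read 13.47, 13.43 and 13.46 in D126 and 13.25, 13.26 and 13.18 in D12, a rise of 0.22 (SE 0.04, adjusted p = 0.0035). HIS3 had 12.87, 13.01 and 13.05 in D126 and 13.10, 12.96 and 12.88 in D12, which overlap. TRP1 was not analysed here.

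The 15 called genes with the largest rise and the 15 with the largest fall, among those whose values did not overlap, are shown by array in the plot of the most changed genes. Among the rising genes, PRY3, DSE4, SCW11, AMN1 and EGT2 belong to the daughter-cell list and BAR1 and MFA2 to the MATa list. Among the falling genes, PAU24, PAU2, PAU5, PAU7, TIR4, DAN1 and TIR3 belong to the lists of seripauperins and anaerobic mannoproteins. The uncharacterised gene YNL034W had the largest rise, 1.08 (SE 0.08, adjusted p = 0.000136), from a probe set that can bind similar transcripts. It read 7.98, 7.97 and 7.96 in D126 and 6.78, 6.77 and 7.12 in D12. D12 replicate 3 was the highest D12 array for YNL034W and still lay below every D126 array. The uncharacterised gene YDL218W had the largest fall. Its level was 11.74, 12.19 and 12.02 in D126 and 13.47, 13.62 and 13.51 in D12, a difference of -1.55 (SE 0.10, adjusted p = 3.4e-05). D126 replicate 1 was the lowest array for YDL218W, and its D12 and REF values overlapped, with REF at 13.42, 13.49 and 13.42.

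**Figure D2:**
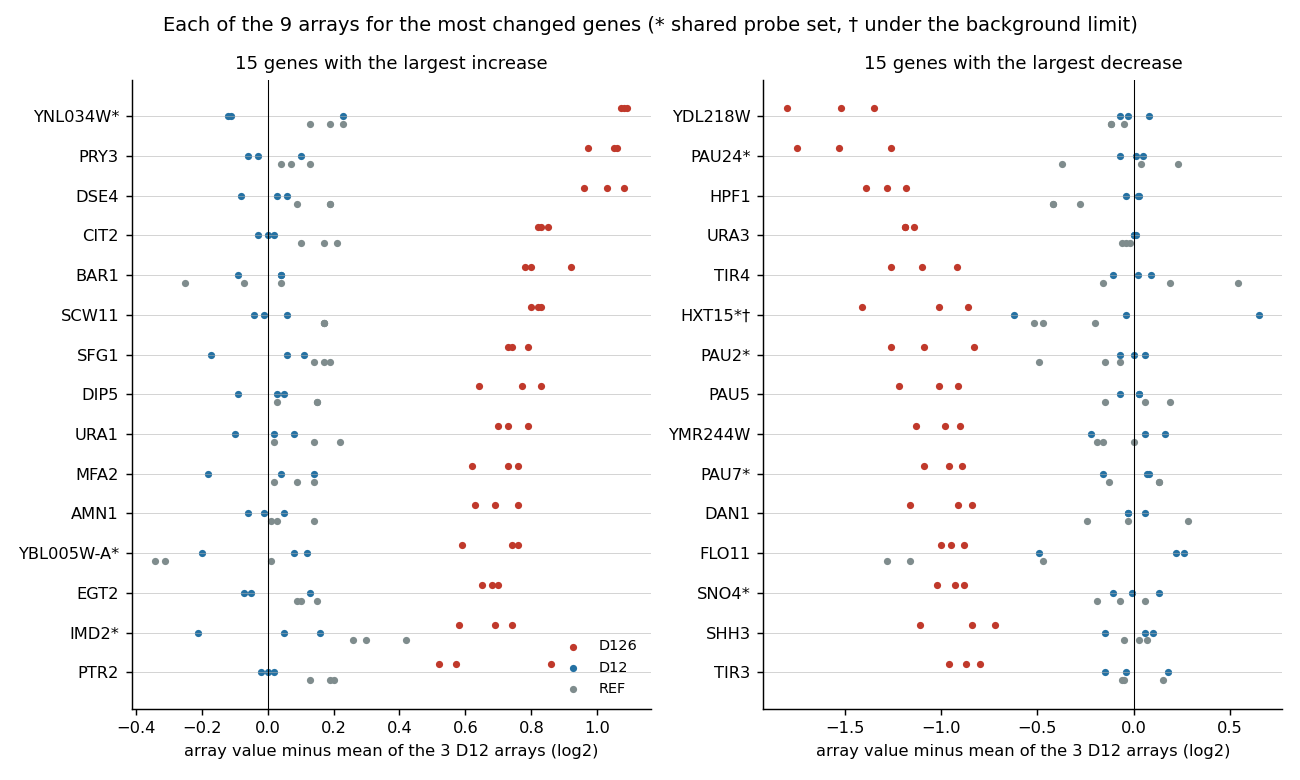
Each array's value minus the mean of the 3 D12 arrays (log2, horizontal axis) for the 15 genes with the largest rise (left) and the 15 with the largest fall (right), with D126 in red, D12 in blue and REF in grey. Red points stand apart from blue ones in every row, as the choice of genes requires. For HPF1 all 3 grey points lie between the red and the blue ones. An asterisk marks a probe set that can bind transcripts of similar genes, and a dagger marks HXT15, whose D126 and D12 values all lie under the background limit, so that its position is no measured size.

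Genes of daughter cells and cell separation were the list with the highest share of calls. Of 13 measured members, 11 were called higher (84.6%, against 7.32% of all genes) and 0 lower, with a median difference of 0.31. This list was chosen with earlier results of these data known, as were all lists named here. The daughter-cell list mean over members, relative to each gene's mean over the 9 arrays, was 0.28, 0.28 and 0.32 in D126, -0.15, -0.19 and -0.19 in D12 and -0.09, -0.15 and -0.13 in REF. The D126 arrays lay together and above the other 6. In these bulk cultures, a larger share of cells of a kind or phase and more transcript per cell cannot be told apart.

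In budding yeast, the daughter nucleus switches on enzymes that digest the septum from its side. DSE4, a glucanase of this group, read 10.53, 10.60 and 10.65 in D126 and 9.63, 9.49 and 9.60 in D12, a rise of 1.02 (SE 0.05, adjusted p = 7.05e-06). PRY3, a wall-bound secreted protein, read 10.62, 10.70 and 10.71 in D126 and 9.75, 9.62 and 9.59 in D12, also a rise of 1.02 (SE 0.05, adjusted p = 7.05e-06). SCW11, a wall protein related to glucanases, read 11.10, 11.07 and 11.09 in D126 and 10.33, 10.26 and 10.23 in D12, a rise of 0.82 (SE 0.03, adjusted p = 3.19e-06). In all 3 genes the gap between strains was several times the spread within either strain. AMN1, an inhibitor of mitotic exit that is made in daughters, rose by 0.70 (adjusted p = 7.77e-05), and EGT2, a wall protein of cell separation, by 0.68 (adjusted p = 0.000136). Smaller rises were found for DSE3 (0.37), DSE2 (0.31), the daughter-specific repressor ASH1 (0.30), SUN4 (0.29), the chitinase CTS1 (0.23) and MOB2 (0.21), which activates the kinase Cbk1. DSE1 was 0.23 higher with overlapping values (adjusted p = 0.112), D12 replicate 3 lying at 10.22 within the D126 range, and CBK1 itself differed by -0.09 (adjusted p = 0.195). Leaving out 1 array at a time gave 8 to 11 called members, with the fewest without D126 replicate 3.

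Bud-site and cell-cycle genes moved in the same direction. Of 12 measured bud-site selection genes, 6 were called higher (50.0%, against 7.32% of all genes) and 0 lower, with a median of 0.10. BUD9, a marker of the birth-scar pole, read 9.52, 9.43 and 9.50 in D126 and 8.85, 8.89 and 8.82 in D12, a rise of 0.63 (SE 0.04, adjusted p = 2.49e-05). RAX2 and RAX1, partners that hold bud-site marks at the cell surface, rose by 0.56 and 0.29, while BUD8, the mark of the opposite pole, differed by 0.06 (adjusted p = 0.273). Without D12 replicate 2, D126 replicate 1 or D126 replicate 3 the list was down to as few as 2 called members, so only part of it is firm. Of 27 measured cell-cycle genes, 11 were called higher (40.7%) and 0 lower, with a median of 0.12. The largest were PCL9 (0.47), a cyclin of early G1, SWI5 (0.39), a transcription factor of late mitosis, and the G1 cyclin CLN2 (0.37). CLN1 (0.32), PCL1 (0.31), CLB2 (0.31), CLB1 (0.25), the replication licensing gene CDC6 (0.26) and the mitotic kinase CDC5 (0.17) rose as well, so the members called included genes of G1 and of mitosis.

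Genes that only MATa cells express, known as a-specific genes, rose in D126. Of 7 measured MATa markers, 5 were called higher (71.4%, against 7.32% of all genes) and 0 lower, with a median of 0.36, and 5 were called under every omission of 1 array. BAR1, the secreted protease that degrades alpha-factor, read 10.97, 10.85 and 10.83 in D126 and 10.09, 9.96 and 10.09 in D12, a rise of 0.83 (SE 0.07, adjusted p = 0.00018). MFA2, a precursor of the a-factor pheromone, read 12.42, 12.53 and 12.56 in D126 and 11.94, 11.84 and 11.62 in D12, a rise of 0.70 (SE 0.08, adjusted p = 0.000419). STE6, the exporter of a-factor, rose by 0.37, MFA1 by 0.36 and the alpha-factor receptor gene STE2 by 0.26, all with strain values that did not overlap. AGA2 differed by 0.06 (adjusted p = 0.311) and ASG7 by 0.03 (adjusted p = 0.821). Among the 4 markers of the opposite mating type, 0 were called higher and 1 lower, and 1 was called higher without D12 replicate 3. MF(ALPHA)1 read 6.59, 6.74 and 6.56 in D126 and 6.19, 6.25 and 6.58 in D12, and MF(ALPHA)2 read 5.99 to 6.14 in D126 and 5.98 to 6.22 in D12, each not far above the background limit of 5.64. STE3, the a-factor receptor gene of MATalpha cells, was called lower at -0.14 (adjusted p = 0.0458), a call lost in most omissions of an array. Of 19 genes shared by haploid cells or induced by pheromone, 3 rose (15.8%, against 7.32% of all genes) and 1 fell (5.3%, against 14.7%). HO, the mating-type switching endonuclease, was the largest at 0.54 (SE 0.07, adjusted p = 0.000882), FUS3 and FAR1 of the pheromone pathway rose by 0.20 and 0.15, and the meiotic repressor RME1 fell by 0.32.

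Seripauperins and the DAN and TIR mannoproteins are small wall proteins that yeast makes chiefly without oxygen. Of 24 seripauperin (PAU) genes listed, 13 had a usable probe set, 8 of them were called lower (61.5%, against 14.7% of all genes) and 0 higher, and the median was -0.63. Of these 13, 10 are read by probe sets that can bind other family members, so single PAU values may mix near-identical copies. PAU24 read 10.38, 10.87 and 10.60 in D126 and 12.06, 12.14 and 12.18 in D12, a difference of -1.52 (SE 0.15, adjusted p = 0.000302). PAU5, on a probe set of its own, read 11.09, 11.40 and 11.30 in D126 and 12.24, 12.34 and 12.34 in D12, a difference of -1.04 (SE 0.10, adjusted p = 0.000199). PAU2 (-1.06), PAU7 (-0.98), PAU3 (-0.83), PAU21 (-0.66), PAU9 (-0.63) and PAU18 (-0.58) fell too. The family was not uniform. PAU17 and PAU23, the other members with probe sets of their own, differed by -0.01 (adjusted p = 0.964) and 0.11 (adjusted p = 0.467), and PAU14 by 0.19 (adjusted p = 0.0527).

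Of 8 measured DAN and TIR genes, 5 were called lower (62.5%, against 14.7% of all genes) and 0 higher, with a median of -0.77. The count was 5 whichever array was omitted. By the names in the RefSeq gene table, DAN3, among these 5, is PAU24, and DAN2, not called, is PAU23. TIR4 read 9.94, 10.28 and 10.10 in D126 and 11.29, 11.22 and 11.09 in D12, a difference of -1.10 (SE 0.16, adjusted p = 0.00184). DAN1 read 8.06, 8.38 and 8.31 in D126 and 9.28, 9.19 and 9.19 in D12, a difference of -0.97 (SE 0.12, adjusted p = 0.000924). TIR3 fell by 0.87 and TIR1 by 0.66. TIR2 and DAN4 differed by 0.02 (adjusted p = 0.906) and -0.08 (adjusted p = 0.338). D126 replicate 1 was the lowest array for both lists, with a list mean of -0.54 for PAU genes, against -0.28 and -0.34 in the other D126 arrays and 0.15 to 0.18 in D12. On the DAN and TIR list D12 replicate 3 was nearer to D126, at 0.08, against 0.26 and 0.24 in the other D12 arrays. For TIR4 and PAU24 the REF arrays spread more widely than the D12 arrays, at 11.04 to 11.74 and 11.76 to 12.36.

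Other genes that respond to oxygen and heme moved little. HEM13 and HEM14, of the oxygen-requiring steps of heme synthesis, fell by 0.28 and 0.24. They were the only 2 of 9 measured heme genes called (22.2% lower, against 14.7% of all genes). Among 9 genes of aerobic and hypoxic isoform pairs, 1 was called higher (11.1%, against 7.32% of all genes) and 1 lower (11.1%, against 14.7%). CYC1, the aerobic cytochrome c, rose by 0.23 and COX5B, the hypoxic cytochrome oxidase subunit, fell by 0.24. After quantile normalization COX5B differed by -0.12 and was not called (adjusted p = 0.129). CYC7 and ANB1, the hypoxic members of other pairs, differed by -0.21 and -0.18 and were not called (adjusted p = 0.114 and 0.0866). HAP1, the heme-responsive activator, fell by 0.28 (adjusted p = 0.00379).

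Wall genes as a whole went both ways. Of 31 measured genes for glucan, chitin and wall mannoproteins, 9 were called higher (29.0%, against 7.32% of all genes) and 8 lower (25.8%, against 14.7%), with 6 each way without D12 replicate 3. HPF1, a mannoprotein known for reducing haze in wine, read 12.40, 12.61 and 12.51 in D126, 13.82, 13.81 and 13.75 in D12 and 13.51, 13.37 and 13.37 in REF. The D126 arrays were lowest and the D12 arrays highest, and D126 minus D12 was -1.28 (SE 0.06, adjusted p = 4.55e-06). FLO11, the flocculin of adhesion and filament formation, read 9.11, 9.06 and 9.18 in D126, 10.28, 9.57 and 10.32 in D12 and 8.90, 8.78 and 9.59 in REF. Here D126 was within the REF range and D12 was spread, with replicate 2 lower than the others. FLO11 was called at -0.94 (SE 0.24, adjusted p = 0.0219), and the call was lost without D12 replicate 1, D12 replicate 3 or any single D126 array (adjusted p = 0.0571 to 0.0627). UTR2 and CRH1, which join chitin to glucan, rose by 0.61 and 0.34, and CHS2, the chitin synthase of the primary septum, by 0.44. CWP1 and WSC4 fell by 0.44 and 0.35. SFG1, a putative transcription factor of surface growth, rose by 0.76 (SE 0.07, adjusted p = 0.000167).

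Citrate genes rose, led by CIT2, the peroxisomal citrate synthase and a textbook readout of the mitochondrial retrograde pathway. CIT2 read 13.73, 13.76 and 13.74 in D126 and 12.91, 12.88 and 12.93 in D12, a rise of 0.84 (SE 0.04, adjusted p = 3.19e-06). Within D126 and within D12 the 3 arrays differed by no more than 0.05. Of 21 measured genes of the glyoxylate, citrate and methylcitrate pathways, 9 were called higher (42.9%, against 7.32% of all genes) and 2 lower. DLD3, another retrograde target, rose by 0.52 (SE 0.03, adjusted p = 5.61e-05), and IDH1 and IDH2, the subunits of the NAD-dependent isocitrate dehydrogenase, by 0.39 and 0.32. CIT3, PDH1 and ICL2, which act on propionate-derived methylcitrate and lie close together on chromosome XVI, rose by 0.49, 0.49 and 0.31. CIT1 rose by 0.19 and ACO1, the aconitase that follows it, differed by 0.04 (adjusted p = 0.543). The glyoxylate cycle enzymes ICL1 and MLS1 differed by -0.11 and 0.10 and were not called (adjusted p = 0.333 and 0.455), while SIP4, an activator of gluconeogenic genes, fell by 0.59 (SE 0.06, adjusted p = 0.000318). The retrograde regulators RTG1, RTG2 and RTG3 differed by -0.01, 0.06 and -0.13 and were not called. The count of higher members was 8 or 9 under every omission of an array.

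Mitochondrial ribosomal protein genes also gained calls, with a count that depends on single arrays. Of 66 measured members, 18 were called higher (27.3%, against 7.32% of all genes) and 1 lower, with a median of 0.13. The list mean was 0.20, 0.04 and 0.06 in D126 and -0.06, -0.12 and 0.05 in D12, so D126 replicate 1 stood high and D12 replicate 3 overlapped the other D126 arrays. The count of higher members was 30 without D12 replicate 3 and 7 at its lowest, without D12 replicate 2 or D126 replicate 1. MRP10 (0.29), MRPL39 (0.26) and MRPL44 (0.25) had the largest rises among called members. Among 36 respiratory chain and ATP synthase genes, 5 were called higher (13.9%, against 7.32% of all genes) and 1 lower (2.8%, against 14.7%). The higher respiratory calls numbered 11 without D12 replicate 3 and 3 without D12 replicate 2 or D126 replicate 1. Both counts grew with the scaling, to 28 ribosomal and 11 respiratory genes after quantile normalization and to 27 and 13 with centred arrays. The lower gene, NDE2, an external NADH dehydrogenase, fell by 0.34 (adjusted p = 0.000473). SLS1, a mitochondrial membrane protein of translation, read 8.72, 8.46 and 8.51 in D126, 8.21, 7.99 and 8.38 in D12 and 7.76 to 7.81 in REF. It was called at 0.37 (SE 0.10, adjusted p = 0.0232), and the call was lost without D12 replicate 2, D126 replicate 1 or D126 replicate 3. Cytosolic ribosomal protein genes showed 6 of 128 called higher and 0 lower, a share of 4.7% that is under the 7.32% of all genes, and 2 were called without D126 replicate 3.

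General stress genes fell. Of 23 measured targets or regulators of the Msn2 and Msn4 stress response, 14 were called lower (60.9%, against 14.7% of all genes) and 1 higher, with a median of -0.28, and 13 to 17 were lower when 1 array was omitted. HSP30, a membrane heat shock protein that restrains the plasma membrane proton pump, read 13.07, 13.33 and 13.33 in D126 and 13.96, 14.00 and 14.03 in D12, a difference of -0.75 (SE 0.07, adjusted p = 0.000286). CTT1, the cytosolic catalase, read 10.68, 10.79 and 10.81 in D126 and 11.35, 11.53 and 11.60 in D12, a difference of -0.73 (SE 0.08, adjusted p = 0.000555). RTN2, a reticulon, fell by 0.71 (SE 0.05, adjusted p = 5.75e-05), SOL4 by 0.49 and PGM2, the major phosphoglucomutase, by 0.39. Not all of the regulon moved. HSP12 and HSP26, small heat shock proteins near the upper end of the scale, differed by -0.07 (adjusted p = 0.0983) and -0.04 (adjusted p = 0.335). MSN2 fell by 0.16 and MSN4 rose by 0.14. When 1 array was omitted, the list kept its 1 higher call only without D12 replicate 3.

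Stationary-phase and reserve carbohydrate genes followed the same direction. Of 16 hydrophilin and stationary-phase genes, 10 were called lower (62.5%, against 14.7% of all genes) and 0 higher, with a median of -0.25. SPS100, a spore-wall maturation protein that resting cells also make, read 12.23, 12.78 and 12.65 in D126 and 13.17, 13.36 and 13.03 in D12, a difference of -0.63 (SE 0.14, adjusted p = 0.0121). HBT1, a substrate of a ubiquitin-like protein, fell by 0.58 and the hydrophilin GRE1 by 0.56. Of 20 trehalose and glycogen genes, 11 were called lower (55.0%, against 14.7% of all genes) and 0 higher, with a median of -0.18. The lower calls on this list numbered 8 to 13 when 1 array was omitted. They numbered 7 with the 6 D126 and D12 arrays alone, and 2 when replicate number was added as a block to those arrays. GAC1, the glycogen-targeting subunit of a phosphatase, read 10.83, 10.78 and 10.78 in D126 and 11.17, 11.24 and 11.24 in D12, a difference of -0.42 (SE 0.04, adjusted p = 0.000302). The glycogenin GLG2 fell by 0.37, and TPS2 and TSL1 of trehalose synthesis by 0.25 and 0.29. The glycogen synthases GSY1 and GSY2 and the phosphorylase GPH1 differed by -0.07, -0.03 and -0.03 and were not called. D126 replicate 1 had a list mean of -0.02, nearer to D12 (0.02 to 0.11) than the other D126 arrays at -0.15.

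Autophagy genes formed a further falling list. Of 34 measured ATG genes, 20 were called lower (58.8%, against 14.7% of all genes) and 0 higher, with a median of -0.18, and 15 to 19 when 1 array was omitted. Their list mean was -0.13, -0.12 and -0.14 in D126 and 0.03, 0.08 and 0.11 in D12, with no overlap. ATG34, a receptor that delivers an enzyme to the vacuole, fell by 0.51 (SE 0.05, adjusted p = 0.000302), ATG23, of vesicle formation, by 0.44 and the initiating kinase ATG1 by 0.37. ATG8, which coats the autophagosome membrane, fell by 0.17.

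Oxidative stress genes fell in part. Of 32 measured enzymes and regulators of peroxide, glutathione and thioredoxin metabolism, 13 were called lower (40.6%, against 14.7% of all genes) and 2 higher. Besides CTT1, the phospholipid hydroperoxide peroxidase GPX1 read 12.22, 12.15 and 12.16 in D126 and 12.41, 12.67 and 12.71 in D12, a difference of -0.42 (SE 0.07, adjusted p = 0.00377). GTT1, a glutathione transferase of the endoplasmic reticulum, fell by 0.40 (SE 0.04, adjusted p = 0.000461), as did the sulfiredoxin SRX1 and the peroxiredoxin TSA2, each by 0.40. The thioredoxin reductase TRR1 rose by 0.17 and the glutaredoxin GRX3 by 0.19. On this list 0 were called higher without D126 replicate 2 or D126 replicate 3. The lower calls numbered 9 without D126 replicate 1 or D126 replicate 3. OYE3, an old yellow enzyme, fell by 0.58 (SE 0.05, adjusted p = 0.00018), while OYE2 differed by 0.05 (adjusted p = 0.362). Among 22 chaperone genes, 6 were called lower (27.3%, against 14.7% of all genes) and 2 higher (9.1%, against 7.32%). The inducible Hsp70 gene SSA3 (-0.49), SSE2 (-0.42) and HSP42 (-0.27) fell, and the constitutive SSA2 rose by 0.20. Of 22 genes of translocation and folding in the endoplasmic reticulum, 5 were called higher (22.7%, against 7.32% of all genes) and 0 lower. The called genes included SBH1 (0.35), SIL1 (0.31), SCJ1 (0.28) and KAR2 (0.11). The count of higher genes on this list was 0 without D126 replicate 3.

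**Figure D3:**
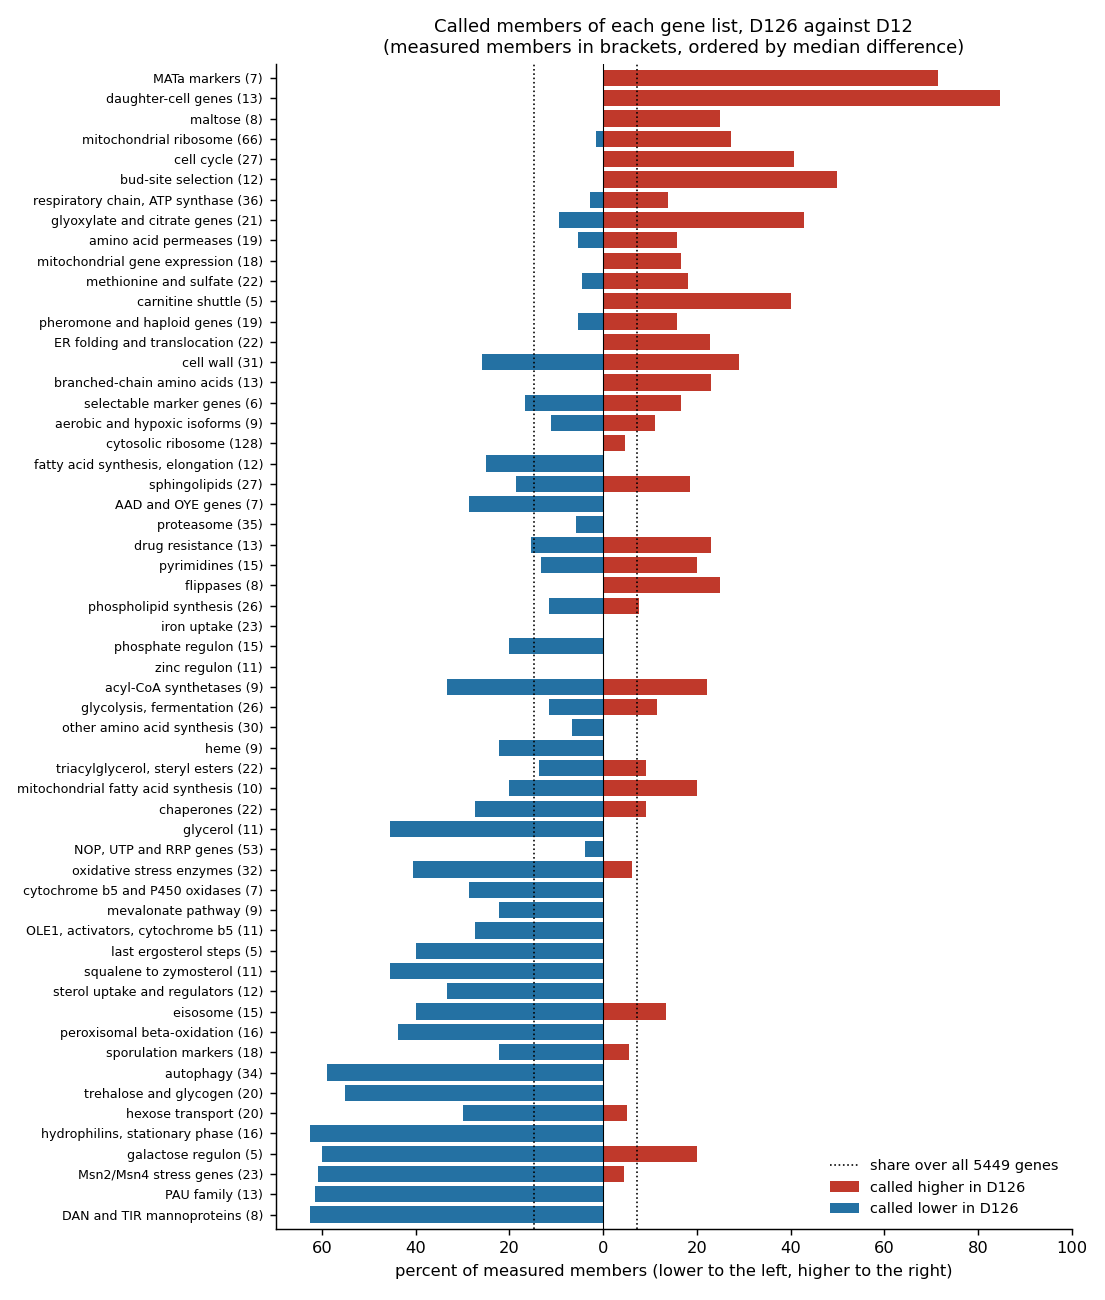
Percent of measured members (number in brackets) called higher (red, to the right) and lower (blue, to the left) in D126 for each gene list, ordered by median difference. The dotted lines mark the share over all 5449 genes, 7.32% higher and 14.7% lower. Daughter-cell and MATa genes have the longest red bars, and the blue bars of the PAU, DAN and TIR, stress, stationary-phase, autophagy and reserve carbohydrate lists are the longest, beside that of the small galactose list.

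The plots by list and by array show how far these groups separate the strains in each sample.

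**Figure D4:**
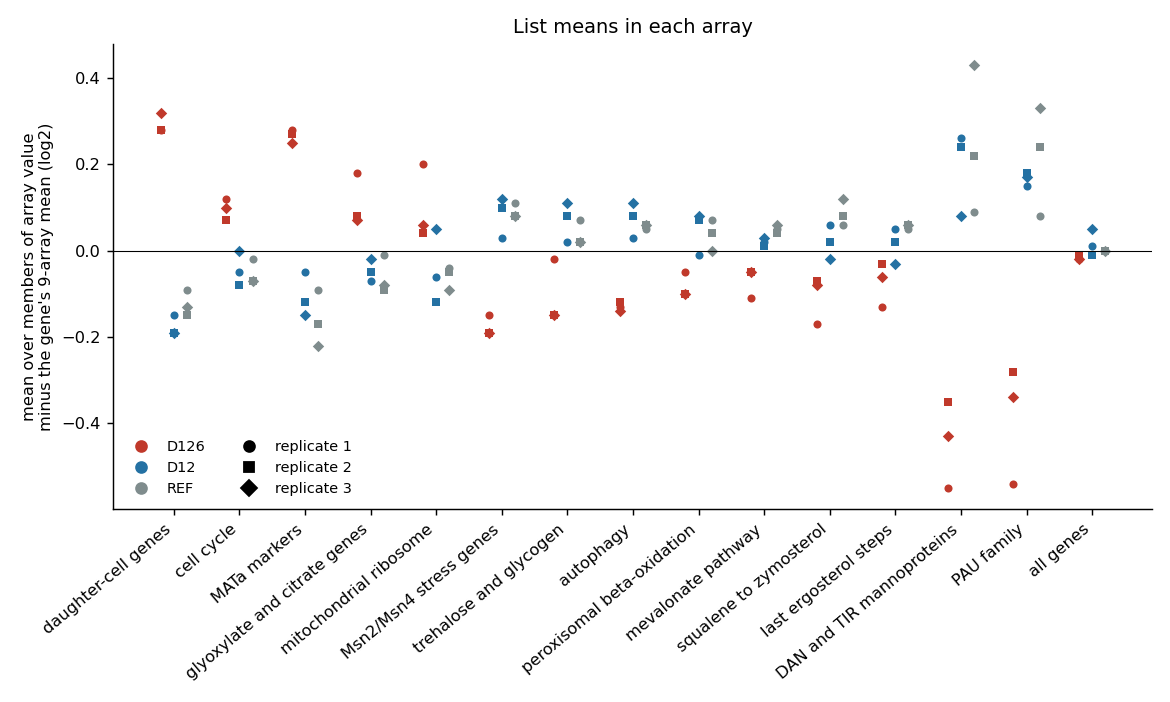
Mean over the members of 14 lists and over all genes of each array's value minus the gene's mean over 9 arrays (log2), with D126 in red, D12 in blue and REF in grey, and the symbol giving the replicate number. D126 arrays lie apart from D12 arrays in 12 of the 14 lists, the exceptions being the mitochondrial ribosome, where D12 replicate 3 (0.05) overlaps D126 (0.04 to 0.20), and the last ergosterol steps, where D126 replicate 2 and D12 replicate 3 are both at -0.03. D126 replicate 1 lies farthest from D12 for the PAU and the DAN and TIR genes.

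The fatty acid desaturase system itself changed little. OLE1 read 14.49, 14.59 and 14.60 in D126 and 14.68, 14.68 and 14.65 in D12. Every D126 value was the lower, and the difference of -0.11 (SE 0.04) was not called (adjusted p = 0.0589). CYB5, the cytochrome b5 that passes electrons to desaturases, hydroxylases and sterol enzymes, read 13.12, 13.31 and 13.31 in D126 and 13.50, 13.61 and 13.54 in D12. It fell by 0.30 (SE 0.06, adjusted p = 0.00554), and CBR1, the reductase of cytochrome b5, differed by 0.08 (adjusted p = 0.215). MGA2 and SPT23, the membrane-bound activators of OLE1, were called at -0.13 (adjusted p = 0.0365) and -0.22 (adjusted p = 0.0327). When 1 array was left out, MGA2 lost its call in 7 of 9 cases and SPT23 in 4 of 9. Of 11 measured genes of this system, 3 were called lower (27.3%, against 14.7% of all genes) and 0 higher, with 1 lower without REF replicate 2 or any single D126 array. With D126 replicate 1 as the lowest array for OLE1 and CYB5, the strains still did not overlap in either gene.

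Genes of fatty acid synthesis and use changed by small amounts. The 12 genes of synthesis and elongation did not fall as a list, with 7 of them above 0 and a median of 0.03. Of these 12, 0 were called higher and 3 lower, a share above the 14.7% of all genes. The lower calls were the carboxylase ACC1 (-0.13), FAS1 (-0.12) and the acetyl-CoA synthetase ACS1 (-0.13). These calls numbered 0 without D12 replicate 2 or D126 replicate 3. Among 9 acyl-CoA synthetases, transporters and binding proteins, FAA3 and FAT1 rose by 0.27 and 0.21 (22.2% higher, against 7.32% of all genes). PCS60, PXA1 and PXA2 fell by 0.27, 0.22 and 0.16 (33.3% lower, against 14.7%). The major synthetases FAA1 and FAA4 differed by -0.03 and -0.00. Peroxisomal beta-oxidation had 7 of 16 genes called lower (43.8%, against 14.7% of all genes) and 0 higher. ECI1, an isomerase needed to break down unsaturated acids, read 11.53, 11.53 and 11.48 in D126 and 11.79, 12.01 and 12.06 in D12, a fall of 0.44 (SE 0.07, adjusted p = 0.00314). Its paralog DCI1 fell by 0.29, the thiolase POT1 by 0.30 and IDP3, which supplies NADPH for unsaturated acids, by 0.29. The acyl-CoA oxidase POX1 and the regulators PIP2 and OAF1 differed by -0.01, 0.00 and -0.06 and were not called. Of 10 genes of mitochondrial fatty acid synthesis, 2 rose and 2 fell (20% each, against 7.32% and 14.7% of all genes), with ETR1, the enoyl reductase, falling by 0.31 (adjusted p = 0.00354). The higher calls numbered 0 without D12 replicate 2, D126 replicate 1, D126 replicate 3 or any single REF array.

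Ergosterol genes differed by small amounts. In the mevalonate pathway 2 of 9 genes were called lower (22.2%, against 14.7% of all genes), the isomerase IDI1 (-0.29, adjusted p = 0.00564) and ERG13 (-0.19), and the HMG-CoA reductases HMG1 and HMG2 differed by -0.10 and -0.08 without a call. From squalene to zymosterol, 5 of 11 were called lower (45.5%) and 0 higher. ERG24, the sterol reductase that follows the cytochrome P450 step, read 13.16, 13.33 and 13.30 in D126 and 13.68, 13.62 and 13.48 in D12, a fall of 0.33 (SE 0.06, adjusted p = 0.00601). ERG7 fell by 0.23, NCP1, the reductase of the P450 enzymes, by 0.21, ERG28 by 0.14 and ERG9 by 0.09. Of the last 5 enzymes, ERG5 and ERG6 were called lower at -0.18 and -0.10, and ERG6 lost its call in 8 of 9 omissions of an array and with centred arrays (adjusted p = 0.102). ERG3, a desaturase that uses cytochrome b5, differed by -0.10 with overlapping values (adjusted p = 0.177). From squalene to zymosterol the count was 3 after quantile normalization or centring, and 3 at its lowest, without REF replicate 2, D12 replicate 1, D12 replicate 2 or D126 replicate 1. The sterol list means were lowest in D126 replicate 1, as for CYB5. Of 12 sterol uptake and regulatory genes, 4 were called lower (33.3%), with 1 left without D12 replicate 1 or D126 replicate 3. AUS1 and PDR11, the sterol importers, fell by 0.17 and 0.13. The regulators UPC2 and ECM22 differed by -0.21 (adjusted p = 0.258) and -0.14 (adjusted p = 0.0581).

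**Figure D5:**
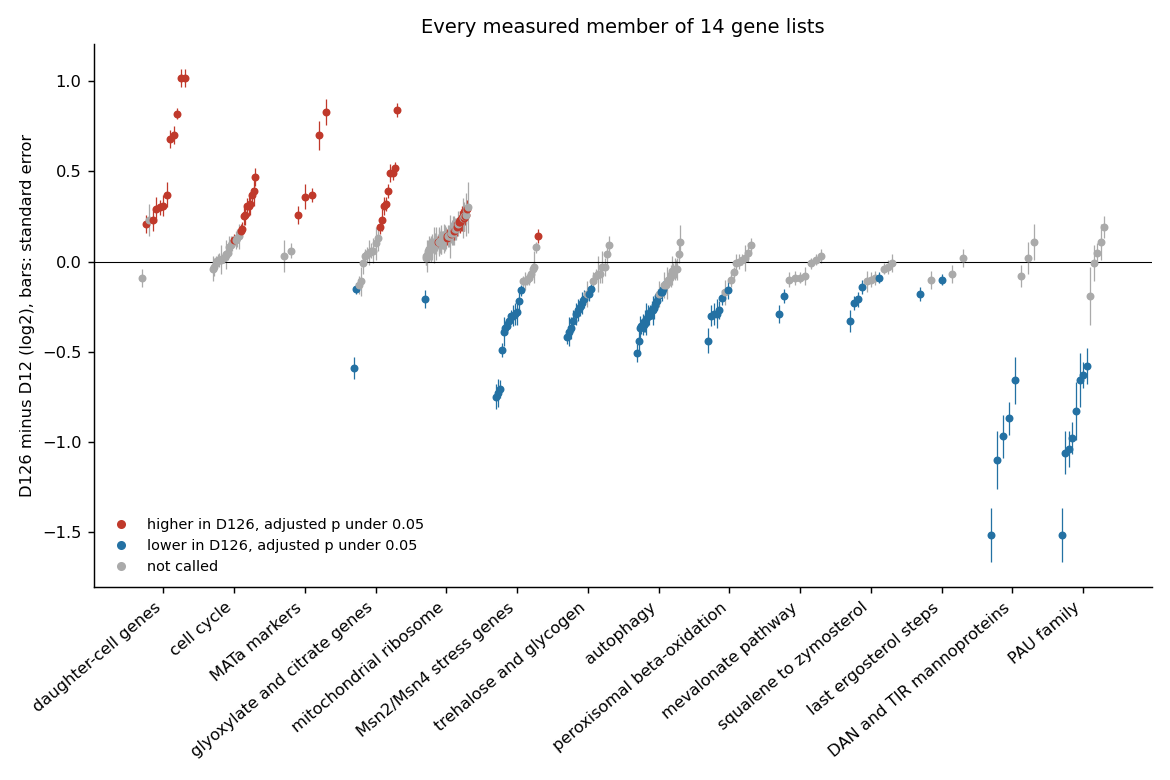
D126 minus D12 (log2) with its standard error for every measured member of 14 lists, red for called higher, blue for called lower and grey for not called. All called daughter-cell, cell-cycle and MATa genes lie above 0, PAU and DAN and TIR genes reach -1.52, and sterol genes stay between -0.33 and 0.03.

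Membrane lipid genes were called in both directions, phospholipid genes at close to the shares of all genes. Of 26 phospholipid genes, 2 rose (7.7%, against 7.32% of all genes) and 3 fell (11.5%, against 14.7%). The largest were PIS1, the phosphatidylinositol synthase, at 0.31 (adjusted p = 0.00566), GEP4, of cardiolipin synthesis, at 0.29 and the activator INO2 at -0.27. INO1, the inositol synthase and a standard readout of Ino2, differed by -0.15 (adjusted p = 0.0732). SLC1 and SCT1, the acyltransferases that build phosphatidic acid, rose by 0.32 (adjusted p = 0.0035) and 0.22 (adjusted p = 0.00592), and AYR1, a reductase of the same route, fell by 0.32 (adjusted p = 0.000389). Sphingolipid genes had 5 higher and 5 lower of 27 (18.5% each, against 7.32% and 14.7% of all genes). Without D12 replicate 2 or D126 replicate 3, 0 were called higher, and without D126 replicate 1, 3 were called lower. The ceramidase YPC1 (-0.28) and the ceramide synthase LAC1 (-0.25) fell. Among 8 flippase genes, DNF2 (0.23) and DRS2 (0.13) were called higher, a share above the 7.32% of all genes. On the flippase list 0 were called without D12 replicate 2, D12 replicate 3 or any single D126 array. At the plasma membrane, PUN1 (0.56, adjusted p = 0.00153) and SUR7 (0.36) rose, and YNL194C (-0.45) and FMP45 (-0.40) of the same protein family fell, as did FHN1 (-0.42). The 15 eisosome genes counted 2 higher and 6 lower, shares above the 7.32% and 14.7% of all genes. The lower calls were as few as 3 without D12 replicate 2 or 3 or without D126 replicate 2 or 3.

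Transport genes held several of the larger changes. DIP5, the permease for acidic amino acids, read 8.42, 8.36 and 8.23 in D126 and 7.64, 7.50 and 7.62 in D12, a rise of 0.75 (SE 0.06, adjusted p = 0.000136). PTR2, the transporter of small peptides, read 10.80, 10.51 and 10.46 in D126 and 9.92, 9.96 and 9.94 in D12, a rise of 0.65 (SE 0.08, adjusted p = 0.000695). Of 19 amino acid permease genes, 3 rose (15.8%, against 7.32% of all genes) and 1 fell (5.3%, against 14.7%). PDR12, the weak acid exporter, rose by 0.43 (adjusted p = 0.00244) and IMD2, of GTP synthesis, by 0.67 from a shared probe set. Of 20 hexose transporters and sensors, 6 were called lower (30.0%, against 14.7% of all genes) and 1 higher (5.0%, against 7.32%). The stress-linked transporter HXT5 fell by 0.26 and the sensor RGT2 rose by 0.23. HXT15 and HXT13 were called lower, but all 6 of their values lie under the background limit of 5.64, so no size is given for them. Of 11 glycerol genes, 5 were called lower (45.5%, against 14.7% of all genes) and 0 higher. The called genes included DAK2 (-0.55), GPP2 (-0.37), GPP1 (-0.33) and GPD1 (-0.25). GPD2, the paralog of GPD1, read 11.53, 11.02 and 11.01 in D126 and 10.69, 10.87 and 10.78 in D12, a difference of 0.40 that was not called (adjusted p = 0.148).

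Most of the other nutrient lists had few calls, the small galactose list excepted. Of 5 measured galactose genes, 3 were called lower (60.0%, against 14.7% of all genes) and 1 higher. GAL7 and GAL1 fell by 0.58 and 0.32, GAL10 was called lower with all values under the background limit, and GAL80, the repressor of the galactose regulon, rose by 0.24. Among 15 phosphate genes 3 were called lower, SPL2 (-0.48), PHM8 (-0.45) and PHO11 (-0.35, on a shared probe set). Of 13 genes of branched-chain amino acids, LEU2, LEU1 (0.20) and BAT2 (0.29) rose (23.1%, against 7.32% of all genes). PDC6, a minor pyruvate decarboxylase, fell by 0.50 (adjusted p = 0.00252). Of 26 glycolytic and fermentation genes 3 rose and 3 fell (11.5% each, against 7.32% and 14.7% of all genes). Of 35 proteasome genes, 2 fell (5.7%, under the 14.7% of all genes), RPN4, the activator of the others, by 0.19 and RPN14 by 0.12. Carnitine shuttle genes YAT1 and YAT2 rose by 0.25 and 0.20, of 5 measured. Of 22 methionine and sulfate genes 4 rose (18.2%, against 7.32% of all genes) and 1 fell, with 1 higher without D126 replicate 3. Of 30 genes of histidine, aromatic, arginine and lysine synthesis 2 fell (6.7%, under the 14.7% of all genes). Of 53 NOP, UTP and RRP genes of ribosome assembly, 2 were called lower (3.8%, against 14.7% of all genes), and 0 without D12 replicate 1, D12 replicate 3 or D126 replicate 1. Some lists with few calls lost calls when 1 array was omitted. The phosphate list kept at least 3 lower calls and the branched-chain list at least 3 higher calls. Without D126 replicate 3 the lower calls numbered 2 among hexose genes, 3 among chaperones and 0 among proteasome genes, and YAT1 and YAT2 both lost their calls without D12 replicate 2 or 3 or D126 replicate 1 or 2. None of 23 iron uptake genes and none of 11 zinc genes was called in limma. At an unadjusted p under 0.05, 7 iron and 2 zinc genes passed. FIT2, of iron capture at the wall, read 11.08, 10.88 and 10.86 in D126, 11.73, 11.98 and 10.84 in D12 and 10.58, 10.63 and 11.68 in REF, so that the spread within D12 was larger than the difference of -0.57 (adjusted p = 0.254).

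At the threshold, the 5 genes just inside had an adjusted p of 0.0499 (ATX1, SER2, RPM2, MRP51 and BUD3), and the 5 just outside lay between 0.0501 and 0.0509 (YND1, MRE11, PET8, GUD1 and PTP2). Their differences were 0.12 to 0.21 in size inside and 0.12 to 0.15 outside. By position, the 235 genes among the outermost 10 of each chromosome end had 31 called higher (13.19%) and 43 lower (18.30%), against 7.07% and 14.65% of genes farther in. Shared probe sets read 52 of those 235 genes. Median differences of single chromosomes ran from -0.03 to 0.01. Of the 191 genes of chromosome IX, 7 were called higher (3.66%, against 7.32% of all genes) and 39 lower (20.42%, against 14.7%). Chromosome II came near it in lower calls, at 19.12%.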

How the data were processed

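RNA from 3 strains with 3 arrays each was hybridised to Affymetrix yeast arrays, and the titles of the samples gave strain and replicate number. The log2 values are those the authors deposited. The submitters' processing notes name RMA and affy, without versions. RMA draws all arrays to a common distribution, which hides a change in total RNA. Of 10928 probe sets, 5498 named 1 of 5449 S. cerevisiae genes, and the brightest was used for the 47 genes with several. For 115 genes the probe set can bind similar transcripts. The background limit, 5.64, is the 95th percentile of the means of 1746 probe sets for genes outside the S. cerevisiae table, and 5332 genes (97.9%) lay above it. The number of arrays limits the precision.

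Strain was the only term in limma 3.58.1 (R 4.3.3), with lmFit and eBayes, 6 residual degrees of freedom and a median standard error of 0.048. The threshold was an adjusted p under 0.05 (Benjamini-Hochberg). D126 minus REF and D12 minus REF share arrays with the comparison here and are given only as levels. The code of the fit was checked on simulated independent arrays, which says nothing about spread shared between the real arrays. Named genes follow a rule: the 15 largest called rises and falls without overlap, up to 3 called members per list (or 2 members where none was called), 10 genes of desaturation and markers, and the 5 genes on each side of the threshold. Other genes named, the further members of lists among them, were chosen after their values were seen. The arrays compared, the 58 lists and the tests were chosen with earlier results of these data known, so no list is independent evidence of its direction. Same-numbered D126 and D12 arrays did not deviate together (correlations of -0.28, -0.02 and -0.16), so the numbers were not used as pairs. The planned description of promoter motifs was not run, since no sequence was used here.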

Additional observations from a re-analysis of the deposited data

Results flagged for a closer look

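Probe sets that the gene table leaves without a gene were not part of the comparison. In a fit over all non-control probe sets, 19 of 3470 of them were called higher in D126 and 41 lower. Of those called higher, 8 had a D126 level above the background limit of 5.64 and a difference of at least 0.5, and they are the ones listed here because their signal exceeded that of D12. Probe set 1776484_at read 6.81, 6.51 and 6.94 in D126 and 5.33, 5.63 and 5.82 in D12, a difference of 1.16 (SE 0.15). In D12, 2 of its 3 values lie under the background limit, so the size of this difference is not well measured. Probe set 1777669_at read 9.44, 9.66 and 9.51 in D126 and 8.86, 8.58 and 8.70 in D12, a difference of 0.83. Probe set 1779659_at read 11.07, 11.17 and 11.19 in D126 and 10.39, 10.50 and 10.24 in D12, a difference of 0.77. The values of the strains did not overlap in these 3 probe sets, and the REF arrays lay below D126 in each. The differences of 1778878_s_at, 1774824_at, 1778286_at, 1780022_at and 1778724_x_at were 0.75, 0.63, 0.61, 0.55 and 0.52. In 1778286_at the REF values, 7.48 to 7.97, overlapped the D126 values, 7.56 to 7.78. In 1778724_x_at REF read 8.46 to 8.72 and D126 8.54 to 8.77, which also overlap. What these probe sets measure is not known here.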

How the results depend on the processing

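The count of 1200 calls (399 higher, 801 lower) held within 1.5 times under 9 arrays with the replicate block (964), quantile normalization (1223), centring (1239), an intensity trend (1279), genes above background only (1217) and the mean of a gene's probe sets (1201). It was 780 (242 higher, 538 lower) with the 6 arrays alone, where fewer arrays measure the spread, 2057 (883 and 1174) with array weights, 578 (162 and 416) with all non-control probe sets tested, 511 (143 and 368) at an adjusted p under 0.01, and 398 (116 and 282) with the replicate block on the 6 arrays. The cause of each was not tested. Same-numbered D126 and D12 arrays did not deviate together, and no array of these strains correlated best with its own number. Whether the calls lost under the block are weaker effects was not tested. Leaving out 1 array gave 683 (without D126 replicate 3) to 1332 (without D12 replicate 1) calls, 208 to 472 higher and 475 to 860 lower. Among the genes named by the rule, HIS3 alone reversed its sign, from -0.00 to 0.02 with quantile normalization, 0.01 with centring, 0.05 with array weights, and -0.06 to 0.06 when 1 array was left out (0.06 without D12 replicate 1 and 0.05 without D126 replicate 1). Over all genes, quantile normalization turned the sign of 2 called genes, RRN7 (-0.11, then 0.02) and HOS1 (-0.10, then 0.00). Signal near background limits the dim genes, and compression near the top of the scale was not tested.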

Other observations

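D12 replicate 3 and REF replicate 3 differed from their own strains in iron uptake genes. The mean of the 23 iron genes, relative to each gene's mean over 9 arrays, was -0.01, 0.03 and 0.00 in D126, 0.17, 0.22 and -0.20 in D12 and -0.23, -0.18 and 0.21 in REF. Within both strains the array that stood apart on this list was replicate 3, in opposite directions, and the D126 arrays lay between. The gaps within D12 and within REF were each larger than the gap between any D126 array and any D12 array.

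Meiosis and sporulation genes, which vegetative cells hold at low levels, also set D12 replicate 3 apart. The mean of 18 such genes was -0.05, -0.08 and -0.13 in D126, -0.03, 0.01 and 0.27 in D12 and 0.01, 0.04 and -0.04 in REF. Of them, 1 rose and 4 fell (22.2%, against 14.7% of all genes). SPS4 read 7.84, 7.90 and 7.99 in D126 and 7.34, 7.19 and 7.73 in D12, a rise of 0.49. SPR3, a septin of sporulation, read 7.03, 7.01 and 6.99 in D126 and 7.48, 7.75 and 8.25 in D12, a fall of 0.82 (adjusted p = 0.00819), and it stayed called without D12 replicate 3. DMC1 and REC8, of meiotic recombination and cohesion, fell by 0.47 and 0.43. Without D12 replicate 3 the list still had 1 gene called higher and 4 called lower.

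Among probe sets without a gene name, 1769984_at was called lower and read 6.93, 7.12 and 7.06 in D12, while all 3 D126 values lay below the background limit of 5.64, so no size is given. Probe set 1773061_s_at read 11.57, 11.70 and 11.66 in D126, 13.00, 13.04 and 12.97 in D12 and 12.61, 12.44 and 12.51 in REF, a difference of -1.36 (SE 0.06, adjusted p = 1.95e-05 in limma over all non-control probe sets).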
